A study of Mus musculus with 6 samples.

Results

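Ribosome biogenesis and RNA polymerase I genes were followed across mouse alveolar macrophages, which live in the air sacs of the lung and clear surfactant and particles. The set was a list of 41 genes named for their work in the nucleolus, of which 40 were measured among 16840 genes in the count table, and Noc2l was not analysed here. The list was drawn up by function, with earlier results of these data known. RNA was sequenced from 6 libraries of wild-type cells labelled as alveolar macrophages and taken on day 2, in 3 groups of 2. The groups were cells without GM-CSF stimulation, cells with GM-CSF stimulation, and cells with GM-CSF stimulation and DON treatment. GM-CSF is the cytokine on which alveolar macrophages depend, and DON is an abbreviation that the sample labels leave unexplained. They give no dose, and leave unsaid if the cells were primary and if the replicates were separate cultures or animals. The p-values therefore measure only the spread between these libraries, which may be technical.

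A ribosome is assembled in the nucleolus from ribosomal RNA (rRNA) and ribosomal proteins. RNA polymerase I copies the rRNA genes into a long precursor, small nucleolar ribonucleoproteins (snoRNPs) modify chosen bases of it, and a series of assembly factors then cut, fold and export the small and the large subunit. Cells that grow and divide make many ribosomes, and the transcription factor MYC is a well known activator of the genes of this pathway. The values below are messenger RNA levels of the pathway's proteins. The precursor rRNA itself was not measured.

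Total counts per library ranged from 28321986 to 35196387, and 12340 genes passed the filter on low counts, among them all 40 measured genes of the set. Levels are CPM (counts scaled to a common library total) after TMM scaling, edgeR's correction for differences in library composition, and are relative to the rest of the RNA. Fewer cells of a type and less RNA per cell cannot be told apart in such bulk samples. Of 12 alveolar macrophage markers, 12 were detected in every library. Their sum was 47522 and 46797 CPM without GM-CSF, 29521 and 29512 CPM with it and 36340 and 34776 CPM with GM-CSF and DON. Single markers went both ways in edgeR's test at an adjusted p under 0.05. With GM-CSF 3 were higher and 8 lower (log2 changes from -2.41 to 1.61), against 27.5% and 29.3% of all genes tested. With DON against GM-CSF 9 were higher and 2 lower, against 28.8% and 28.8%. Summed markers of epithelium, T cells, B cells, endothelium and fibroblasts were at most 3.77 CPM each in any library, with Sftpc at 0 or 1 count per library. The granulocyte markers S100a8 and Csf3r together were at 30.4 and 32.7 CPM without GM-CSF and between 3.84 and 4.93 CPM in the other 4 libraries. Their part in the results below was not tested.

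Start regions are shown first for genes whose transcripts moved most and for genes with an E-box, the site that MYC and its partners can bind. RefSeq promoter windows (GRCm38.p6, 250 bases before to 50 after a start site) matched 35 of the 40 genes by symbol, with 38 windows. An E-box (CACGTG, the same on both strands) was found in the windows of 8 of the 35 genes (22.9%) and of 12.1% of 8536 tested genes with a window. The ETS core (CCGGAA, both strands) was found for 42.9% of the set and 32.0% of the tested genes, and the GC box (GGGCGG, both strands) for 80.0% and 68.6%. An ETS core can share letters with one on the other strand or with a GC box, and a match is a description of the sequence, not a site in use. The stretches below run 5′ to 3′ and end at the last base before the gene's first annotated base in RefSeq. Capitals mark E-boxes, ETS cores and GC boxes on either strand. The first group holds the 3 genes with an E-box before the start.
Nop2, chr6:125131733-125131882, plus strand: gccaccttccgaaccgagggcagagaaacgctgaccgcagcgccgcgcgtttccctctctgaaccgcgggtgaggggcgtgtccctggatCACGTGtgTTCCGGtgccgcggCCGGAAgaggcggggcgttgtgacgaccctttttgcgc
Imp4, chr1:34439679-34439828, plus strand: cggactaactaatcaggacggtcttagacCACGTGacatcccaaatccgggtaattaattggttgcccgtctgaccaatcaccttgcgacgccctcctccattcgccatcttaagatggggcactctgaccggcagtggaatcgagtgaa
Utp18, chr11:93885767-93885916, minus strand: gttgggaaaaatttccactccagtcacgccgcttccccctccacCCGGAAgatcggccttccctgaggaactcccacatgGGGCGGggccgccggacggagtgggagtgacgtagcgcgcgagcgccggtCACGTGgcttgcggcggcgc
The other 5 genes with an E-box (Pes1, Mybbp1a, Tsr1, Wdr43 and Utp20) had it after the start. The second group holds Lyar, which had the largest rise with GM-CSF, Nop58, Nolc1 and Nhp2, which were among the 4 with the largest falls with DON, and Polr1c, which moved the other way.
Lyar, chr5:38220332-38220470, plus strand: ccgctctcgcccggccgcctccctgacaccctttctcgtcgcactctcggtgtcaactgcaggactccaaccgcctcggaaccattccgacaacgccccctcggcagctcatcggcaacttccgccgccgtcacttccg
Nop58, chr1:59684856-59684960, plus strand: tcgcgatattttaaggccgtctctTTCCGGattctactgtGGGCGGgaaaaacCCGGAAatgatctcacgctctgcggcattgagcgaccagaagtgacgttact
Nolc1, chr19:46075697-46075846, plus strand: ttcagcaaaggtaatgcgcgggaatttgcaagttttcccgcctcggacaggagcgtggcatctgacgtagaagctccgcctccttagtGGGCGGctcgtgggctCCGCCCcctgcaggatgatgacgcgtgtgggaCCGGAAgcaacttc
Nhp2, chr11:51619623-51619772, plus strand: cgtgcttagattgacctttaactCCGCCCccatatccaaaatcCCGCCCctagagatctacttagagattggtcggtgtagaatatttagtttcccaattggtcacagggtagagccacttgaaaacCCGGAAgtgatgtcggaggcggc
Polr1c, chr17:46248046-46248195, minus strand: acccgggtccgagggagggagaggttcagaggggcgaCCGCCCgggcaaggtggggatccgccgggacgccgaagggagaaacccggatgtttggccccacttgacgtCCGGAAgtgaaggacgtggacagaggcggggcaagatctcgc
None of these 5 held an E-box in the letters shown, and the Lyar stretch held no match of any of the 3 motifs. The 8 genes with an E-box had a median log2 change of 0.31 with GM-CSF and -0.35 with DON. The 27 genes with a window and no E-box had medians of 0.31 and -0.37.

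Several of the genes also carry small nucleolar RNA genes within their own bounds. In GENCODE M21 (GRCm38), 7 of the 40 genes (17.5%) enclosed at least 1 snoRNA gene on the same strand, against 1.7% of 10564 tested protein-coding genes found by symbol. They were Nop56 with 5, Nop58 with 4, Ncl, Gnl3 and Wdr43 with 3 each, Tsr1 with 2 and Dkc1 with 1. All 40 genes are annotated as protein-coding. In RefSeq on GRCm38, Nop58 lies on chromosome 1 from 59684961 to 59711510 and Nolc1 on chromosome 19 from 46075847 to 46085543. Polr1a lies on chromosome 6 from 71909053 to 71979435, and Polr1c on chromosome 17 from 46243920 to 46248045. The strand setting of the counts is not given in the sources used here. For Tsr1, 32.3% of the annotated exon bases overlap Srr on the opposite strand, so that reads of the 2 genes could be told apart there only if strand was used in counting. For 15 other genes such an overlap covered at most 5.3% of exon bases.

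Levels of different genes were compared per length, in the FPKM values (fragments scaled to transcript length and library total) that the authors deposited. Npm1, which encodes the nucleolar chaperone nucleophosmin, was highest, at 363 ± 16.3 FPKM with GM-CSF (mean ± SD, n = 2, as for all such values). Nhp2 (101 ± 0.686 FPKM) and Fbl (81.6 ± 0.0607 FPKM) followed, and did not overlap with each other or with Npm1. Further down, neighbours in this order often overlapped, as with Nop56 at 59.9 ± 7.11 and Mybbp1a at 58.5 ± 8.63 FPKM. At the low end stood the polymerase I subunits Polr1a (6.40 ± 0.312 FPKM) and Polr1b (5.18 ± 0.0795 FPKM), and Rrp1b was lowest (2.93 ± 0.203 FPKM). The length implied by counts and FPKM differed by more than 1.1-fold between libraries for 21 of the 40 genes. A ratio of 1.091 recurred among the others, as for Rrs1, Nop2 and Gnl3, just under that threshold. For Ncl the implied length was 8236 bases. Ncl was at 397 ± 22.8 CPM and 49.4 ± 2.86 FPKM with GM-CSF, and Npm1 at 390 ± 23.8 CPM. The order in FPKM therefore rests on lengths that the authors do not state.

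**Figure D1:**
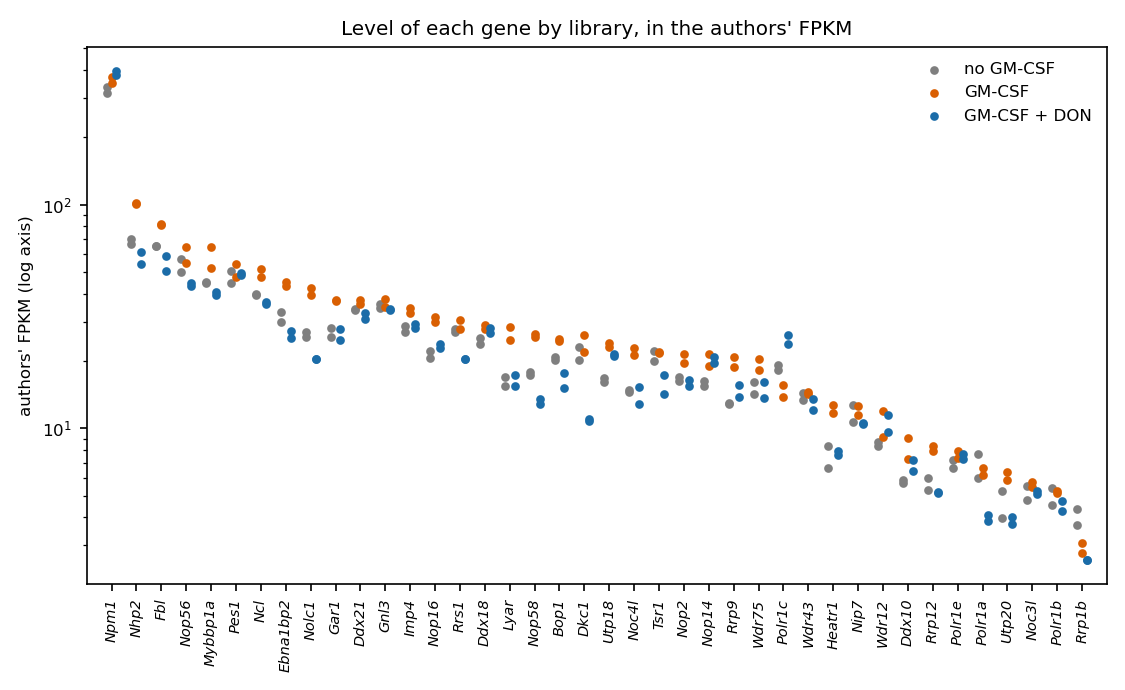
Authors' FPKM of the 40 genes in each of the 6 libraries (log axis), ordered by the mean with GM-CSF, with grey for no GM-CSF, orange for GM-CSF and blue for GM-CSF with DON. Npm1 lies far above the rest in all 3 groups, and Polr1a, Polr1b, Utp20 and Rrp1b lie at the low end.

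The first comparison asked how GM-CSF changed these genes. Most rose by a modest amount: of 40 genes, 27 rose and 1, Polr1c, fell, and the median log2 difference was 0.31 (1.24-fold), in a range from -0.35 to 0.77. Among all 12340 genes tested with edgeR, 27.5% were higher and 29.3% lower (56.8% in either direction) at an adjusted p under 0.05, with a median of -0.02. A rise of at least 1.5-fold was found for 3 of the 40, Lyar, Heatr1 and Noc4l, against 9.80% of all genes, a similar share. The 12 not called were Polr1a, Polr1b, Ddx21, Nop56, Tsr1, Wdr43, Pes1, Rrs1, Noc3l, Gnl3, Nip7 and Rrp1b. Scaling by total counts alone moved the median of all genes by 0.12 on the log2 scale (from -0.02 to 0.10), and then 4587 genes were higher and 2689 lower, against 3393 and 3621 in edgeR's scaled test. Both GM-CSF libraries lay above both without it for 31 of the 40 and below them for 2, against 38.1% and 40.6% of all genes. With total counts alone 36 of the 40 were called higher and Polr1c lower.

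The second comparison was of cells given DON as well as GM-CSF with cells given the cytokine only. Most of the genes fell: 28 of 40 were lower and 1, again Polr1c, was higher, with a median of -0.37 (1.29-fold lower) and a range from -0.97 to 0.74. Among all genes tested 28.8% were lower and 28.8% higher (57.6% in either direction), with a median of 0.01. Falls of at least 1.5-fold were found for 14 of the 40, against 10.3% of all genes. They were Nop58, Nolc1, Dkc1, Nhp2, Noc4l, Lyar, Ebna1bp2, Polr1a, Utp20, Rrp12, Heatr1, Gar1, Tsr1 and Bop1. The 11 not called were Npm1, Wdr43, Nop14, Ddx10, Pes1, Wdr12, Rrp1b, Noc3l, Nip7, Gnl3 and Ddx18. Both DON libraries lay below both GM-CSF libraries for 34 of the 40 and above them for 2, against 39% and 40.4% of all genes. The comparisons share groups, so their values are given side by side and no relation between them is drawn.

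**Figure D2:**
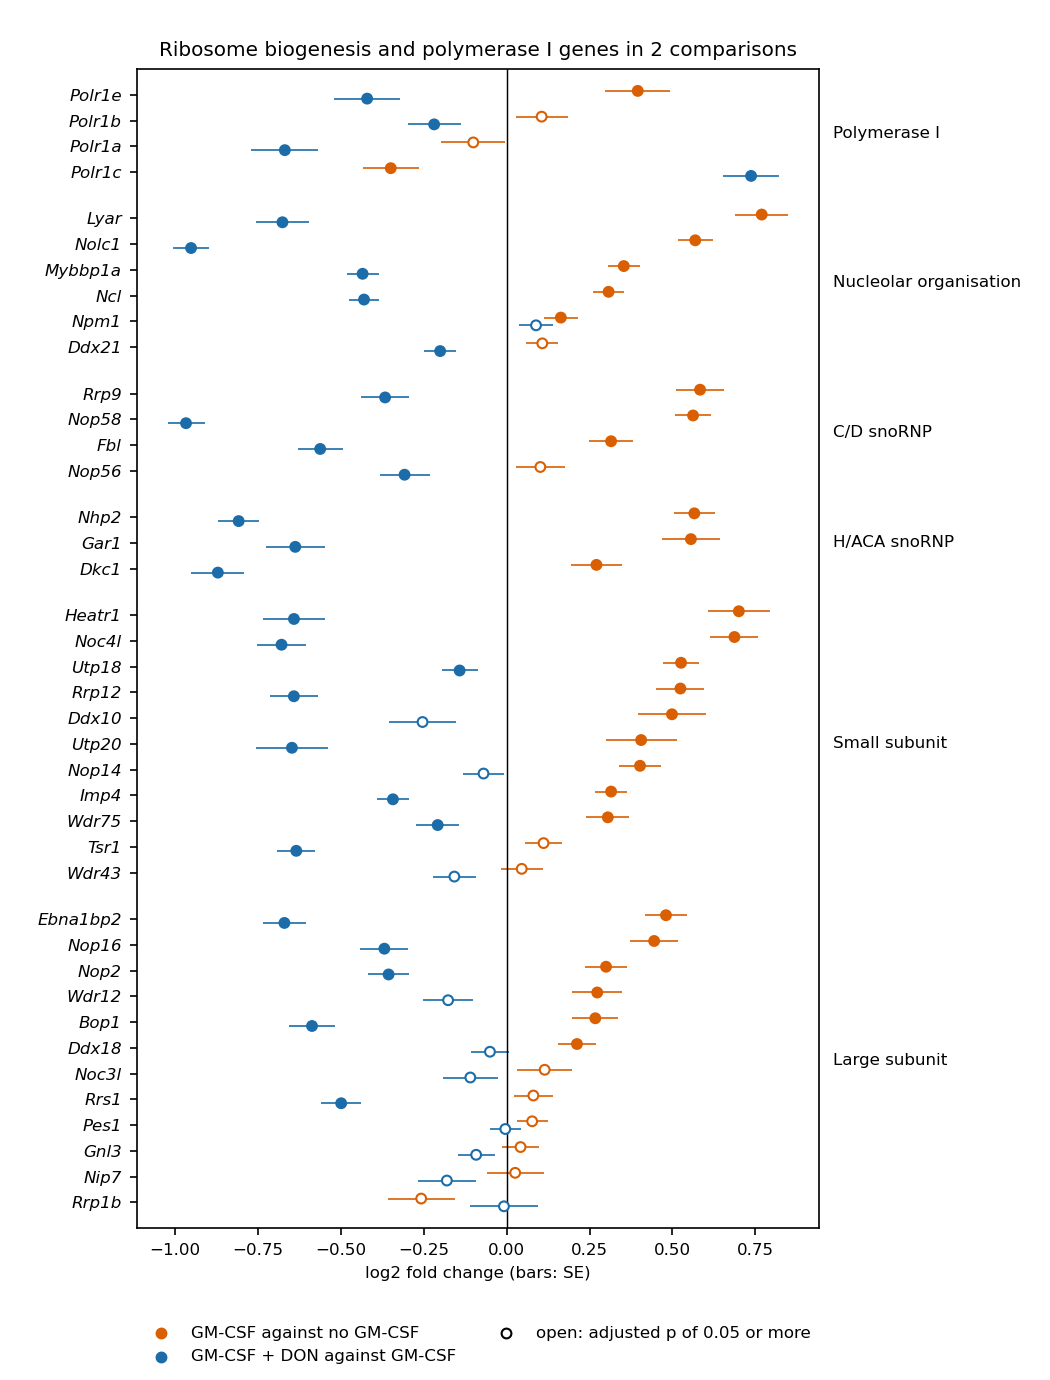
Log2 fold change with its SE for the 40 genes, by role, for GM-CSF against no GM-CSF (orange) and GM-CSF with DON against GM-CSF (blue), with open circles at an adjusted p of 0.05 or more. Most orange points lie right of 0 and most blue points left of it, and Polr1c has the opposite signs.

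Levels with both GM-CSF and DON were also tested against cells without GM-CSF. Of the 40 genes, 6 were higher and 13 lower, with a median of -0.08, against 27.2% higher and 28.4% lower (55.6% in either direction) among all genes tested, so that the share of lower genes was near the background and that of higher genes below it. The higher genes were Polr1c, Utp18, Nop14, Npm1, Rrp9 and Ddx18. The lower genes were led by Polr1a (-0.77 ± 0.10), Dkc1 (-0.60 ± 0.08), Tsr1 (-0.52 ± 0.06), Rrs1 (-0.42 ± 0.06) and Nop58 (-0.40 ± 0.06), followed by Nolc1, Bop1, Rrp1b, Fbl, Nhp2, Nop56, Ebna1bp2 and Ncl. The remaining 21 were Polr1b, Polr1e, Mybbp1a, Ddx21, Lyar, Gar1, Wdr43, Wdr75, Utp20, Heatr1, Imp4, Noc4l, Ddx10, Rrp12, Pes1, Wdr12, Nop2, Nop16, Noc3l, Nip7 and Gnl3. Scaling by total counts alone took the median to 0.017 and the number of lower genes to 7, and over all genes gave 4408 higher and 2745 lower, against 3353 and 3506. Without GM-CSF with DON replicate 2 the number of lower genes was also 7. Among the 19 calls, 8 were lost on leaving out at least 1 library: Rrp1b, Ncl, Ebna1bp2, Nop56, Rrp9, Ddx18, Fbl and Nhp2. Fbl and Nhp2 were lost without GM-CSF with DON replicate 2, Rrp9 and Ddx18 without GM-CSF with DON replicate 1 or either library lacking GM-CSF, and Ncl without any 1 of these 4. Nop56 was lost without no GM-CSF replicate 2 or either DON library, and Ebna1bp2 without these or GM-CSF replicate 2.

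Of the 4 polymerase I subunit genes, 1 rose and 1 fell with GM-CSF (median 0.00), and 3 fell and 1 rose with DON (median -0.32). Over all genes tested, 27.5% rose and 29.3% fell with GM-CSF, so both shares of this role were near the background. With DON 28.8% of all genes tested fell and 28.8% rose. Polr1a encodes the largest subunit, which forms the catalytic centre together with the product of Polr1b. Polr1a was at 44.6 and 35.6 CPM without GM-CSF, 36.1 and 38.7 CPM with it and 22.7 and 24.3 CPM with GM-CSF and DON. The DON libraries lay below the other 4, while those with and without GM-CSF overlapped. Polr1a fell with DON (log2 fold change -0.67 ± 0.10, adjusted p = 0.000289), and its difference with GM-CSF was -0.10 ± 0.10, adjusted p = 0.405. Polr1b was at 16.1 and 16.9 CPM without GM-CSF, 17.5 and 18.0 CPM with it and 14.5 and 16.0 CPM with GM-CSF and DON. It fell with DON (-0.22 ± 0.08, adjusted p = 0.0388), a call lost in 7 of 14 alternative analyses, among them those without GM-CSF replicate 1, GM-CSF replicate 2 and GM-CSF with DON replicate 1. Its difference with GM-CSF was 0.11 ± 0.08. Polr1e encodes a subunit found in polymerase I and in no other polymerase, and was at 7.04 and 7.31 CPM without GM-CSF, 9.51 and 9.37 CPM with it and 7.27 and 6.85 CPM with GM-CSF and DON. Both GM-CSF libraries lay above the other 4, with a rise of 0.40 ± 0.10 and a change with DON of -0.42 ± 0.10. On the authors' FPKM the same differences were 0.13 and -0.03 and neither was called.

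Polr1c was the exception among all 40 genes. It encodes a subunit that polymerases I and III share. Polr1c was at 20.1 and 18.9 CPM without GM-CSF, 16.3 and 14.3 CPM with it and 26.5 and 24.6 CPM with GM-CSF and DON. The 3 groups did not overlap, with GM-CSF lowest and DON highest. The log2 changes were -0.35 ± 0.08, adjusted p = 0.00552 with GM-CSF, 0.74 ± 0.08, adjusted p = 4.27e-05 with DON, and 0.39 ± 0.08, adjusted p = 0.00248 for both together against no GM-CSF. Without GM-CSF replicate 2 the fall with GM-CSF was not called (adjusted p = 0.0534, and between 0.00269 and 0.0534 over all alternatives).

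Of 6 genes of nucleolar organisation, 5 rose with GM-CSF (median 0.33) and 5 fell with DON (median -0.43), with Ddx21 not called in the first and Npm1 in the second. Over all genes tested 27.5% rose with GM-CSF and 28.8% fell with DON. Ncl, which encodes nucleolin, an RNA-binding protein of rRNA transcription and processing, was at 322 and 319.5 CPM without GM-CSF, 413 and 381 CPM with it and 293 and 296 CPM with GM-CSF and DON. Both GM-CSF libraries lay above the other 4, and the DON libraries lay below those without GM-CSF. Ncl rose with GM-CSF (0.31 ± 0.05, adjusted p = 0.000255) and fell with DON (-0.43 ± 0.05, adjusted p = 2.85e-05). Npm1 was at 337 and 359 CPM without GM-CSF, 406 and 373 CPM with it and 411 and 418 CPM with GM-CSF and DON. It rose with GM-CSF (0.16 ± 0.05, adjusted p = 0.0195), a call lost without no GM-CSF replicate 1, without GM-CSF replicate 1 and with upper-quartile scaling. Its difference between DON and GM-CSF was 0.09 ± 0.05, adjusted p = 0.161, which passed with upper-quartile scaling (0.16, adjusted p = 0.0248), and with both it was higher than without GM-CSF (0.25 ± 0.05).

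Nolc1 encodes Nopp140, a chaperone of snoRNPs in the nucleolus and Cajal bodies. It was at 69.2 and 72.5 CPM without GM-CSF, 109 and 101 CPM with it and 54.2 and 54.5 CPM with GM-CSF and DON, and the 3 groups did not overlap. It rose with GM-CSF (0.57 ± 0.05, adjusted p = 1.01e-05) and fell with DON (-0.95 ± 0.05, adjusted p = 5.19e-07) to below the level without GM-CSF. Lyar, a nucleolar zinc finger protein gene, was at 17.7 and 19.2 CPM without GM-CSF, 32.7 and 30.2 CPM with it and 18.7 and 20.7 CPM with GM-CSF and DON. Its rise with GM-CSF was the largest of the 40 (0.77 ± 0.08, adjusted p = 1.92e-05), and it fell with DON (-0.67 ± 0.08) to a level that overlapped with that without GM-CSF. Mybbp1a, which encodes a nucleolar Myb-binding protein, was at 143 and 135 CPM without GM-CSF, 181 and 174 CPM with it and 129 and 133 CPM with GM-CSF and DON, with a rise of 0.35 ± 0.05 and a change of -0.43 ± 0.05 with DON. Ddx21, an RNA helicase of rRNA transcription and processing, was at 155 and 154 CPM without GM-CSF, 170.2 and 163 CPM with it and 141 and 149.6 CPM with GM-CSF and DON. Its difference with GM-CSF was not called (0.11 ± 0.05, adjusted p = 0.0806), and it fell with DON (-0.20 ± 0.05, adjusted p = 0.00513), except with upper-quartile scaling (adjusted p = 0.054, the highest of the alternatives, with a lowest of 0.00112).

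The genes listed under box C/D snoRNPs all fell with DON (4 of 4, median -0.46), and 3 rose with GM-CSF (median 0.44). Over all genes tested 28.8% fell with DON and 27.5% rose with GM-CSF. Fbl, Nop56 and Nop58 encode parts of the particles that place methyl groups on the ribose of rRNA. Fbl encodes fibrillarin, the methyltransferase of the complex, and was at 63.6 and 63.7 CPM without GM-CSF, 79.3 and 79.1 CPM with it and 57.9 and 49.6 CPM with GM-CSF and DON. The 3 groups did not overlap, and the log2 changes were 0.32 ± 0.07 with GM-CSF and -0.56 ± 0.07 with DON. Nop56 and Nop58 encode the paired core proteins of the same particle. Nop58 was at 41.4 and 42.8 CPM without GM-CSF, 63.4 and 61.0 CPM with it and 32.7 and 31.1 CPM with GM-CSF and DON. It had the largest fall of the 40 genes with DON (-0.97 ± 0.06, adjusted p = 5.29e-07), 1 of 14 falls of 1.5-fold or more, after a rise of 0.56 ± 0.05 with GM-CSF. Nop56 was at 71.5 and 79.4 CPM without GM-CSF, 86.8 and 75.1 CPM with it and 66.6 and 64.4 CPM with GM-CSF and DON. It was not called with GM-CSF (0.10 ± 0.07, adjusted p = 0.272), and its fall with DON (-0.31 ± 0.08, adjusted p = 0.00568) was not called without GM-CSF replicate 1 (-0.20, adjusted p = 0.0654). Rrp9, a protein of the U3 snoRNP that is needed for cutting the precursor, was at 17.4 and 17.4 CPM without GM-CSF, 26.4 and 25.7 CPM with it and 21.2 and 19.3 CPM with GM-CSF and DON. It rose with GM-CSF (0.58 ± 0.07), fell with DON (-0.37 ± 0.07), and with both was still higher than without GM-CSF (0.22 ± 0.07, adjusted p = 0.0294).

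The 3 box H/ACA snoRNP genes of the set all rose with GM-CSF (median 0.56), each by less than 1.5-fold. All 3 fell with DON by at least 1.5-fold (median -0.81). Over all genes tested 27.5% rose with GM-CSF, and 10.3% fell with DON by at least 1.5-fold. The products of the H/ACA genes turn chosen uridines of rRNA into pseudouridine and also belong to telomerase. Dkc1, which encodes the pseudouridine synthase dyskerin, was at 30.1 and 34.2 CPM without GM-CSF, 40.6 and 37.0 CPM with it and 21.8 and 20.7 CPM with GM-CSF and DON. Its rise with GM-CSF was small (0.27 ± 0.08, adjusted p = 0.012) and was lost without no GM-CSF replicate 1, without GM-CSF replicate 1 and on FPKM. Its fall with DON was among the largest (-0.87 ± 0.08, adjusted p = 1.03e-05), and DON left it below the level without GM-CSF (-0.60 ± 0.08). Nhp2 was at 56.7 and 59.4 CPM without GM-CSF, 86.5 and 85.3 CPM with it and 52.1 and 46.2 CPM with GM-CSF and DON, with changes of 0.57 ± 0.06 and -0.81 ± 0.06. Gar1 was at 11.5 and 11.7 CPM without GM-CSF, 17.8 and 16.4 CPM with it and 10.4 and 11.6 CPM with GM-CSF and DON, with changes of 0.56 ± 0.09 and -0.64 ± 0.09. For Nhp2 the 3 groups did not overlap, while for Gar1 the DON libraries overlapped with those without GM-CSF.

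Of 11 genes of small subunit assembly, 9 rose with GM-CSF (median 0.41) and 8 fell with DON (median -0.34). Over all genes tested 27.5% rose with GM-CSF and 28.8% fell with DON. Heatr1 and Wdr43 encode parts of the UtpA complex, which binds the start of the precursor. Heatr1 was at 53.1 and 42.1 CPM without GM-CSF, 73.9 and 80.8 CPM with it and 48.7 and 50.5 CPM with GM-CSF and DON. Both GM-CSF libraries lay above the other 4, and it rose with GM-CSF (0.70 ± 0.09, adjusted p = 0.000122) and fell with DON (-0.64 ± 0.09, adjusted p = 0.000233). Wdr43 was at 46.7 and 44.0 CPM without GM-CSF, 46.4 and 47.2 CPM with it and 44.2 and 39.8 CPM with GM-CSF and DON. It was called in neither direction, with differences of 0.05 ± 0.06, adjusted p = 0.568 with GM-CSF and -0.16 ± 0.06, adjusted p = 0.0583 with DON, and the second passed in 6 of 14 alternatives, among them those without either library lacking GM-CSF and without GM-CSF with DON replicate 1. Wdr75, of the same complex, rose by 0.31 ± 0.07 with GM-CSF and changed by -0.21 ± 0.07 with DON, the second lost in 5 alternatives, 3 of them without GM-CSF replicate 1, GM-CSF replicate 2 or GM-CSF with DON replicate 1.

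Noc4l and Nop14, whose products bind each other in the small subunit processome, both rose with GM-CSF, and with DON Noc4l fell and Nop14 was not called. Noc4l was at 23.4 and 21.9 CPM without GM-CSF, 37.9 and 34.8 CPM with it and 23.7 and 21.9 CPM with GM-CSF and DON, with changes of 0.69 ± 0.07 with GM-CSF and -0.68 ± 0.07 with DON. Nop14 was at 36.3 and 39.0 CPM without GM-CSF, 51.8 and 47.7 CPM with it and 48.3 and 46.7 CPM with GM-CSF and DON. Its rise with GM-CSF was 0.40 ± 0.06, its difference with DON was not called (-0.07 ± 0.06, adjusted p = 0.364), and with both it stayed above the level without GM-CSF (0.33 ± 0.06). The difference between the 2 genes was not tested. Utp18 was at 38.6 and 40.6 CPM without GM-CSF, 58.3 and 55.6 CPM with it and 51.1 and 52.2 CPM with GM-CSF and DON, with a rise of 0.53 ± 0.05 with GM-CSF. Its fall with DON (-0.14 ± 0.05, adjusted p = 0.0461) was lost in 9 of 14 alternatives, among them the removal of any 1 of the 4 libraries compared, and it too was above the level without GM-CSF (0.38 ± 0.06).

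The other genes of the small subunit included the export factor gene Rrp12, at 24.7 and 21.9 CPM without GM-CSF, 32.6 and 34.3 CPM with it and 21.6 and 21.3 CPM with GM-CSF and DON, with changes of 0.52 ± 0.07 and -0.64 ± 0.07. Utp20, a scaffold of the processome, rose by 0.41 ± 0.11 (not called without GM-CSF replicate 1 or on FPKM) and with DON changed by -0.65 ± 0.11, and Imp4, a U3 protein, by 0.32 ± 0.05 and -0.34 ± 0.05. The helicase gene Ddx10 rose by 0.50 ± 0.10, and its difference with DON was not called (-0.25 ± 0.10, adjusted p = 0.0558) but passed in 6 of 14 alternatives, among them those without either library lacking GM-CSF and without GM-CSF replicate 2. Tsr1, which acts late in small subunit assembly, was at 53.4 and 51.7 CPM without GM-CSF, 55.4 and 58.3 CPM with it and 37.7 and 35.5 CPM with GM-CSF and DON. Its difference with GM-CSF was 0.11 ± 0.06, adjusted p = 0.113, and it fell with DON (-0.63 ± 0.06, adjusted p = 9.3e-06). The overlap of its exons with Srr applies to these values.

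Some of the genes with the longest implied lengths differed between the replicates without GM-CSF. Replicate 1 was higher than replicate 2 by 0.39 (log2) for Utp20, 0.33 for Heatr1 and 0.33 for Polr1a, whose implied lengths were 8821, 6481 and 5997 bases. Over 1037 genes with an implied length above 5000 bases and a mean of at least 5 CPM the median of this difference was 0.13. Over 3753 genes of up to 2000 bases it was -0.03. In the same sets of genes, the medians were -0.10 and 0.04 between the DON replicates, and -0.02 and 0.01 between the GM-CSF replicates. For Utp20, Heatr1 and Polr1a the DON replicates differed by -0.10, -0.05 and -0.10. Without no GM-CSF replicate 1 the difference of Polr1a with GM-CSF was 0.07, and without replicate 2 it was -0.25. It was positive in 2 of 14 alternatives, so its sign was not settled. Ncl, with the second longest implied length, differed by 0.01. These lengths are only implied by counts and FPKM, and the authors do not state them. The part of transcript length in the results was not tested.

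Of 12 genes of large subunit assembly, 6 rose with GM-CSF (median 0.16) and 5 fell with DON (median -0.18), and the difference from the small subunit genes was not tested. Over all genes tested 27.5% rose with GM-CSF and 28.8% fell with DON. Pes1, Bop1 and Wdr12 encode the 3 parts of the PeBoW complex, which acts in processing of the large subunit rRNA. Pes1 was at 99.0 and 98.0 CPM without GM-CSF, 103 and 104 CPM with it and 101 and 106 CPM with GM-CSF and DON. It was called in no comparison (0.08 ± 0.05, adjusted p = 0.184 with GM-CSF and -0.0037 ± 0.05, adjusted p = 0.953 with DON). Bop1 was at 47.4 and 46.4 CPM without GM-CSF, 57.0 and 55.9 CPM with it and 40.6 and 34.8 CPM with GM-CSF and DON, and the 3 groups did not overlap. It rose with GM-CSF (0.27 ± 0.07, adjusted p = 0.0076, and adjusted p = 0.0532 without GM-CSF replicate 1) and fell with DON (-0.59 ± 0.07, adjusted p = 6.3e-05). Wdr12 was at 19.1 and 21.1 CPM without GM-CSF, 24.1 and 24.6 CPM with it and 22.3 and 20.8 CPM with GM-CSF and DON. It rose with GM-CSF (0.27 ± 0.07), a call lost on FPKM, without no GM-CSF replicate 1 and without GM-CSF replicate 2, and its difference with DON was -0.18 ± 0.08, adjusted p = 0.0684.

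Rrs1, which helps to bring the 5S particle into the large subunit, was at 50.1 and 52.0 CPM without GM-CSF, 56.4 and 51.5 CPM with it and 38.4 and 38.1 CPM with GM-CSF and DON. The DON libraries lay below the other 4, with a change of -0.50 ± 0.06, adjusted p = 6.19e-05, and the difference with GM-CSF was 0.08 ± 0.06, adjusted p = 0.265. Nop2, an rRNA methyltransferase gene, was at 41.3 and 39.8 CPM without GM-CSF, 52.1 and 47.6 CPM with it and 40.2 and 37.8 CPM with GM-CSF and DON, with changes of 0.30 ± 0.06 and -0.36 ± 0.06. Ebna1bp2, an early large subunit factor, had the largest changes among the 12 genes, 0.48 ± 0.06 with GM-CSF and -0.67 ± 0.06 with DON, from 34.2 ± 2.52 CPM without GM-CSF, 47.8 ± 0.399 CPM with it and 30.0 ± 0.673 CPM with GM-CSF and DON. Nop16 changed by 0.44 ± 0.07 and -0.37 ± 0.07. The helicase gene Ddx18 rose by 0.21 ± 0.06 with GM-CSF (not called without GM-CSF replicate 1), and its difference with DON was -0.05 ± 0.06, adjusted p = 0.487.

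The remaining 4 large subunit genes were called in neither of these comparisons. Gnl3 encodes nucleostemin, a GTPase of proliferating cells, and was at 58.5 and 61.1 CPM without GM-CSF, 63.9 and 59.1 CPM with it and 58.0 and 57.6 CPM with GM-CSF and DON, with differences of 0.04 ± 0.06 and -0.09 ± 0.06. Differences with GM-CSF and with DON were 0.03 ± 0.09 and -0.18 ± 0.09 for Nip7, and 0.11 ± 0.08 and -0.11 ± 0.08 for Noc3l. Rrp1b was at 12.1 and 11.2 CPM without GM-CSF, 10.3 and 9.17 CPM with it and 9.23 and 10.2 CPM with GM-CSF and DON. Its difference with GM-CSF was negative and close to the threshold (-0.26 ± 0.10, adjusted p = 0.0512), and it was lower with GM-CSF and DON than without GM-CSF (-0.26 ± 0.10, adjusted p = 0.0476), a call lost in 12 of 14 alternatives, the removal of any 1 of the 6 libraries included.

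**Figure D3:**
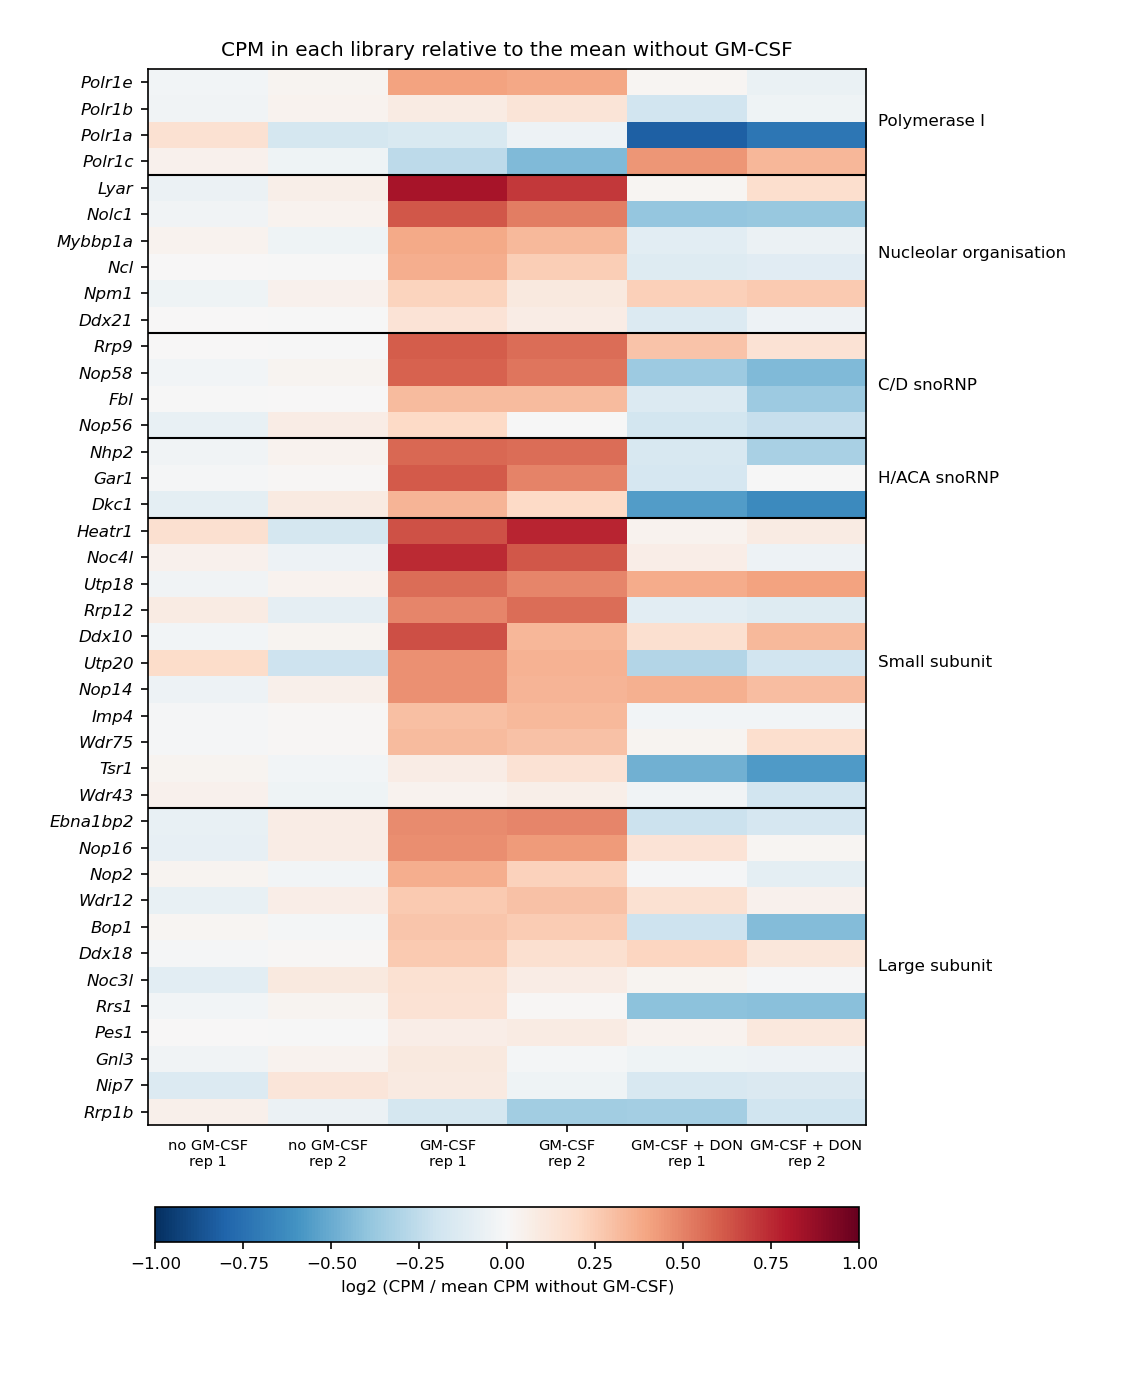
Each row is 1 of the 40 genes, by role, and each column 1 library; colour gives log2 of CPM over the mean of the 2 libraries without GM-CSF. The GM-CSF columns are mostly red and the DON columns mixed, with Polr1a, Dkc1 and Tsr1 bluest and Polr1c, Utp18 and Nop14 red.

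Summed over all 40 genes, levels were 2315 and 2332 CPM without GM-CSF, 2886 and 2746 CPM with it and 2253 and 2250.2 CPM with GM-CSF and DON. Both GM-CSF libraries lay above the other 4, and the DON libraries lay below those without GM-CSF. The second order depended on the scaling. As a share of total counts, without TMM, the sum was 0.219% and 0.223% without GM-CSF and 0.298% and 0.284% with it. With GM-CSF and DON this share was 0.227% and 0.231%, above both libraries without GM-CSF. By role, the sums with GM-CSF did not overlap with those of either other group for every role but polymerase I. For polymerase I they were 87.9 and 78.7 CPM without GM-CSF, 79.4 and 80.5 CPM with it and 71.0 and 71.8 CPM with GM-CSF and DON, so that the libraries without GM-CSF spanned those with it. The sum of the 11 small subunit genes with DON, 404 and 404 CPM, fell within the range without GM-CSF, from 391 to 415 CPM. The sum of the H/ACA genes with DON, 84.2 and 78.6 CPM, lay below both libraries without GM-CSF, at 98.3 and 105 CPM.

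**Figure D4:**
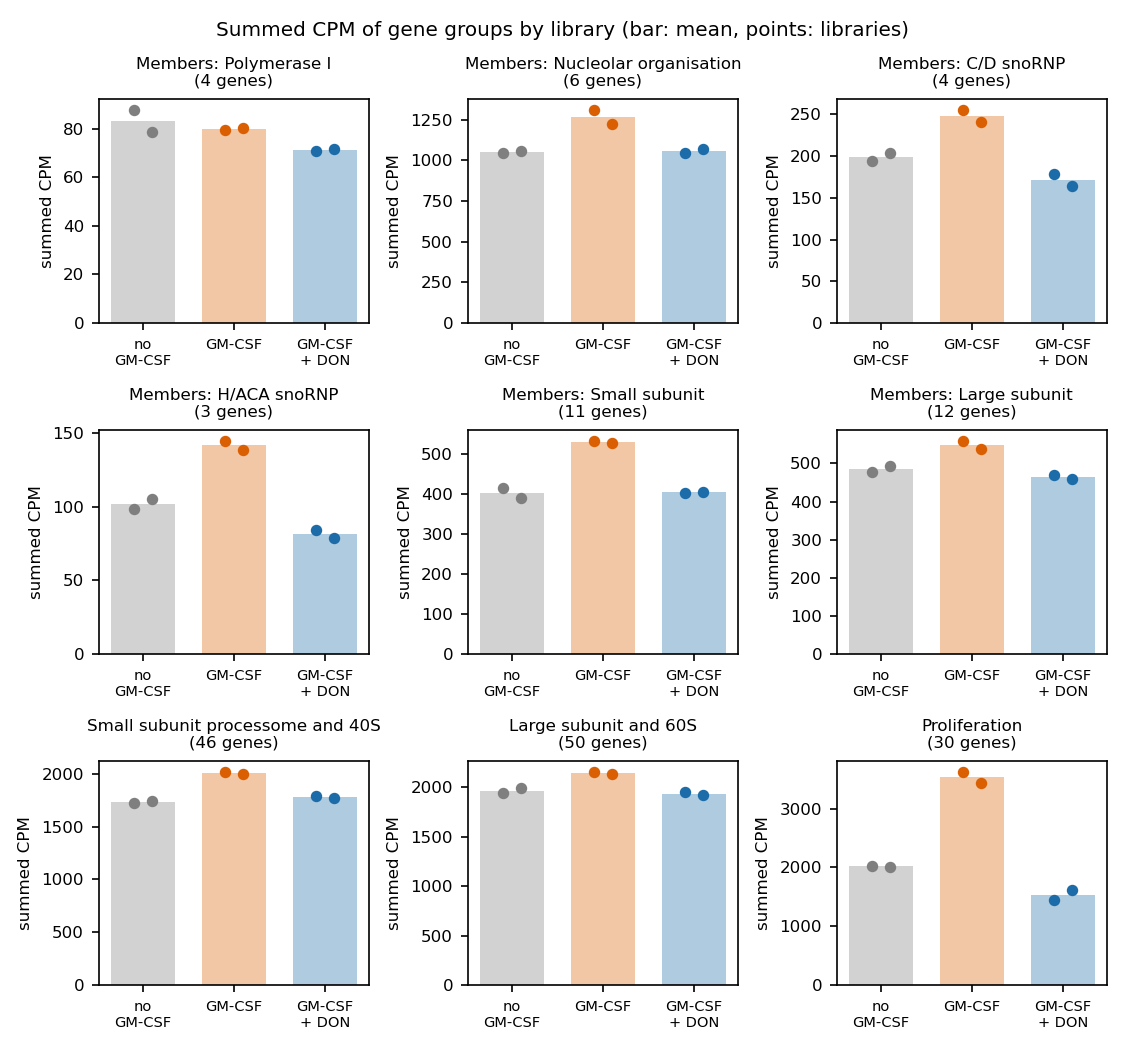
Summed CPM of the genes of each role, of 2 wider lists of assembly factors and of a proliferation list, with bars for the mean of 2 libraries and points for the libraries (axes start at 0). Except for polymerase I, both GM-CSF libraries lie above the other 4 in every panel.

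Other genes of the pathway were counted on lists set out by function. Of 46 other genes of the small subunit processome and 40S assembly, 28 rose and 2 fell with GM-CSF (median 0.22), and 27 fell and 6 rose with DON (median -0.24). Over all genes tested, 27.5% rose and 29.3% fell with GM-CSF, and 28.8% fell and 28.8% rose with DON. Within the list, the largest rises with GM-CSF were of Nol10 (0.60 ± 0.07) and Bysl (0.57 ± 0.06), and Dhx37 (-0.52 ± 0.08) and Krr1 (-0.20 ± 0.06) fell. With DON the GTPase gene Bms1 (-0.60 ± 0.07) and Ltv1 (-0.51 ± 0.06) had the largest falls, and Ddx52 (0.59 ± 0.06) and Utp14a (0.52 ± 0.06) the largest rises. With GM-CSF and DON against no GM-CSF, 10 were higher, led by Ddx52 (0.81 ± 0.06) and Ngdn (0.70 ± 0.08), and 8 lower, led by Dhx37 (-0.39 ± 0.08) and Utp6 (-0.37 ± 0.05). Both shares were below those over all genes tested, 27.2% higher and 28.4% lower. The fall of Krr1 was lost with total counts and without either GM-CSF library, and was 0.11 on FPKM.

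Of 50 other genes of large subunit assembly, 29 rose and 1, Nsa2 (-0.21 ± 0.05, not called with total counts), fell with GM-CSF (median 0.20). With DON 30 fell and 3 rose (median -0.24). Over all genes tested, 27.5% rose and 29.3% fell with GM-CSF, and 28.8% fell and 28.8% rose with DON. Within the list, the rRNA methyltransferase gene Ftsj3 had the largest called change in both, 0.48 ± 0.06 and -0.67 ± 0.06, followed by Mrto4 (0.42 ± 0.08) with GM-CSF and Urb2 (-0.64 ± 0.07) with DON. Gltscr2 (0.60 ± 0.06) and Zfp622 (0.34 ± 0.06) had the largest rises with DON. With both against no GM-CSF, 8 were higher, led by Spata5 (0.67 ± 0.08) and Gltscr2 (0.59 ± 0.06), and 14 lower, led by Mdn1 (-0.90 ± 0.23) and Ppan (-0.56 ± 0.08). Over all genes tested 27.2% were higher and 28.4% lower, so the share of higher genes was below the background and that of lower genes near it. Mdn1 was at 38.6 and 20.7 CPM without GM-CSF, 22.8 and 23.8 CPM with it and 15 and 16.7 CPM with GM-CSF and DON, a wide spread between the replicates without GM-CSF. Without no GM-CSF replicate 1 its difference was -0.39, without GM-CSF with DON replicate 1 it was not called (adjusted p = 0.0619), and on FPKM it was 0.12.

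Other polymerase I subunits and factors, like the 4 subunits of the set, went both ways. Of 14, 3 rose and 3 fell with GM-CSF, and 2 rose and 6 fell with DON. Over all genes tested, 27.5% rose and 29.3% fell with GM-CSF, so neither share of the list was above the background. With DON 28.8% of all genes tested rose and 28.8% fell, and with both against no GM-CSF 27.2% were higher and 28.4% lower. Tcof1, which encodes treacle, a cofactor of polymerase I transcription, rose by 0.59 ± 0.05 with GM-CSF and changed by -0.31 ± 0.05 with DON. The chromatin remodeller gene Smarca5 rose by 0.26 ± 0.06 and with DON changed by -0.46 ± 0.06, and Top1, which encodes topoisomerase I, changed by -0.51 ± 0.05 with DON. Taf1b (-0.29 ± 0.09) and Twistnb (-0.23 ± 0.07) fell with GM-CSF, and Znrd1 (0.32 ± 0.08) and Taf1d (0.21 ± 0.08) rose with DON. Against no GM-CSF, 3 were higher with both, led by Tcof1 (0.28 ± 0.05) and Znrd1 (0.27 ± 0.08), and 4 lower, led by Top1 (-0.56 ± 0.05) and Ubtf (-0.29 ± 0.05), the gene of the upstream binding factor. Calls lost with total counts and on leaving out a library were those of Taf1b (no GM-CSF replicate 1 or either GM-CSF library), Twistnb (no GM-CSF replicate 2 or GM-CSF replicate 1) and Taf1d (either GM-CSF library or GM-CSF with DON replicate 2). The calls of Taf1b and Twistnb were also lost with DESeq2, that of Taf1d with DESeq2 and the replicate block, and those of Taf1b, Smarca5 with GM-CSF (0.18, adjusted p = 0.0821) and Ubtf (-0.18, adjusted p = 0.0715) on FPKM. The last call of Znrd1 was lost with DESeq2 and without no GM-CSF replicate 2 or GM-CSF with DON replicate 1.

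The exosome trims the ends of rRNA and destroys faulty precursors. Of 18 genes of this group, 10 rose and 2 fell with GM-CSF (median 0.23), and 11 fell and 2 rose with DON (median -0.28). Over all genes tested, 27.5% rose and 29.3% fell with GM-CSF, and 28.8% fell and 28.8% rose with DON. Exosc8 (0.46 ± 0.07) and Exosc2 (0.40 ± 0.07) had the largest rises with GM-CSF, and Papd5 (-0.34 ± 0.05) and Zcchc7 (-0.27 ± 0.09) fell. With DON the nuclease gene Dis3 (-0.89 ± 0.06) and Mphosph6 (-0.82 ± 0.08) had the largest falls, and Exosc5 (0.35 ± 0.07) and Papd5 (0.26 ± 0.05) rose. Against no GM-CSF 1, Exosc5 (0.26 ± 0.07), was higher with both and 5 were lower, led by Dis3 (-0.50 ± 0.07) and Mphosph6 (-0.49 ± 0.09). In that comparison 27.2% of all genes tested were higher and 28.4% lower, so the share of lower genes was near the background. The fall of Zcchc7 was lost on FPKM (-0.020, adjusted p = 0.905), with DESeq2, with total counts and without replicate 1 of either group, and the last call of Exosc5 without GM-CSF with DON replicate 1.

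Polymerase III makes the 5S rRNA outside the nucleolus, and its genes had no common direction. Of 22, 7 rose and 3 fell with GM-CSF, 5 rose and 6 fell with DON, and 7 were higher and 6 lower with both against no GM-CSF. Over all genes tested, 27.5% were higher and 29.3% lower with GM-CSF, and 28.8% were higher and 28.8% lower with DON. Against no GM-CSF, 27.2% of all genes tested were higher with both and 28.4% lower. Most shares of the list were thus near these. Polr3d (0.73 ± 0.07) and Polr3c (0.39 ± 0.05) rose with GM-CSF, and the alternative subunit genes Polr3gl (-0.76 ± 0.09) and Polr3g (-0.63 ± 0.09) fell, the call of Polr3g being lost on FPKM (-0.37, adjusted p = 0.0592). With DON Polr3gl (0.65 ± 0.09) and Polr3c (0.48 ± 0.05) had the largest rises, and Polr3d (-0.46 ± 0.07) was among those that fell. With both against no GM-CSF Polr3c (0.87 ± 0.05) and Gtf3a (0.47 ± 0.05) had the largest rises, and Bdp1 (-0.38 ± 0.10) was among the lower genes. The call of Bdp1 was lost on FPKM and on leaving out no GM-CSF replicate 1 or GM-CSF with DON replicate 1. Of 12 listed snoRNA host genes without protein product, 2 were tested. Zfas1 (1500012F01Rik in the table) was at 4.74 and 4.99 CPM without GM-CSF, 4.61 and 4.30 CPM with it and 13.6 and 12.0 CPM with GM-CSF and DON and rose with DON (1.52 ± 0.11), and Snhg3 rose with GM-CSF (0.51 ± 0.09).

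Of 16 listed regulators of the pathway 15 were tested, and Mycn was not analysed here. Myc was at 62.8 and 68.2 CPM without GM-CSF, 74.5 and 69.5 CPM with it and 49.3 and 47.4 CPM with GM-CSF and DON. Its difference with GM-CSF was 0.14 ± 0.06, adjusted p = 0.0734, and it fell with DON (-0.58 ± 0.06, adjusted p = 2.64e-05) to below the level without GM-CSF (-0.44 ± 0.06). The MYC partner gene Max changed by 0.17 ± 0.04 with GM-CSF and 0.18 ± 0.04 with DON. Genes of the MXD and MNT repressors, which compete with MYC for MAX, were higher with DON: Mxi1 by 0.86 ± 0.05, Mxd4 by 0.70 ± 0.05, Mnt by 0.44 ± 0.05 and Mxd1 by 0.23 ± 0.07. With GM-CSF Mnt (-0.50 ± 0.05) and Mxd4 (-0.25 ± 0.05) fell, Mxd1 rose (0.51 ± 0.08), and Mxi1 was not called (-0.12 ± 0.05, adjusted p = 0.0638). The rise of Max with GM-CSF was lost on FPKM and without GM-CSF replicate 1, that of Mxd1 with DON on FPKM, with DESeq2 and without GM-CSF replicate 2 or GM-CSF with DON replicate 1, and the fall of Mxd4 with total counts.

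Maf1, which encodes a repressor of polymerase III, fell with GM-CSF (-0.39 ± 0.05) and rose with DON (0.59 ± 0.05). Of the growth signalling genes, Rps6kb1 rose with GM-CSF (0.70 ± 0.05) and with DON (0.22 ± 0.05). Rptor was not called with GM-CSF (-0.11 ± 0.07) and fell with DON (-0.35 ± 0.07), a call lost on FPKM (-0.18, adjusted p = 0.137), and Mtor was called in neither (-0.05 ± 0.11 and -0.06 ± 0.11). Gsk3b rose with DON (0.16 ± 0.06, adjusted p = 0.0456) and Nfic fell in both (-0.45 ± 0.05 and -0.62 ± 0.06). In the p53 branch, which can sense faults in ribosome assembly, Mdm2 was called in neither (0.01 ± 0.05 and 0.03 ± 0.05), and Trp53 rose with DON (0.16 ± 0.05). Cdkn2a was low, at 0.934 ± 0.234 CPM without GM-CSF, 1.56 ± 0.0729 CPM with it and 0.755 ± 0.0692 CPM with GM-CSF and DON, and fell with DON (-1.05 ± 0.30). Among calls with DON, Gsk3b was lost in 10 of 14 alternatives, among them the removal of any 1 of the 4 libraries compared, Trp53 with DESeq2 and without GM-CSF replicate 2 or GM-CSF with DON replicate 1, and Cdkn2a without GM-CSF replicate 1 or GM-CSF with DON replicate 2.

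A proliferation list moved with the set. Of 30 genes, 29 rose with GM-CSF (median 1.18) and 30 fell with DON (median -1.29), led by Ccnb2 (1.62 ± 0.09) and Ccnb1 (1.62 ± 0.06) in the first and by Cdc20 (-2.63 ± 0.10) and Aurka (-2.35 ± 0.09) in the second. The summed level was 2023 and 2015 CPM without GM-CSF, 3630.4 and 3441 CPM with it and 1446 and 1618 CPM with GM-CSF and DON, with no overlap between the 3 groups. Against no GM-CSF, 2 were higher with both, Top2a (0.42 ± 0.09) and Nusap1 (0.34 ± 0.09, not called without GM-CSF with DON replicate 2), and 20 lower, led by Aurka (-1.09 ± 0.09) and Cdc20 (-1.03 ± 0.10). Over all genes tested, 27.5% rose with GM-CSF, 28.8% fell with DON, and 27.2% were higher and 28.4% lower with both against no GM-CSF. The part of cell division in the changes of the nucleolar genes was not tested.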

How the data were processed

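RNA-seq of 6 libraries in 3 groups of 2 was analysed from a table of raw read counts per gene and a separate table of FPKM values, both deposited by the authors. The submitters' processing notes name the mm10 genome, DESeq2 1.28.1, Subread 1.4.6 with featureCounts, and STAR 2.6.0a, without their roles. For the annotation, strand setting, gene filter and FPKM lengths: not given in the sources used here.

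Counts of 16840 genes were filtered with filterByExpr (minimum count 10), which removed 4500 genes, scaled by TMM and tested with edgeR 4.0.16 (quasi-likelihood test, all 3 groups in 1 fit, residual degrees of freedom 3), in R 4.3.3. P-values were adjusted by Benjamini-Hochberg over 12340 genes and called at 0.05. Totals of 28321986 to 35196387 counts gave a median SE of 0.0803 to 0.0807 on the log2 scale. Changes are log2 fold changes ± SE, the SE being the change divided by the root of its F statistic, and levels are CPM computed from the counts. The test was checked on simulated counts with known changes. All 6 count columns were used. No pair of libraries of a group agreed within sampling noise (chi-square per degree of freedom 4.5 to 8.46).

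Members and lists were chosen with earlier results of these data known. The genes named were a fixed set of 20 members, the 5 largest and 5 smallest changes in each comparison, members not called or called against the majority, the 2 largest called rises and falls of each other list, and every regulator, except 1 list gene that is not reported here. Remaining members are named in counts, and Mdn1 was given per library after its values were seen. Alternatives were other scalings, no low-count filter, DESeq2 1.42.0, limma 3.58.1 on log2(FPKM + 1), only the groups compared, a replicate block and leaving out each library. Motifs and sequences came from RefSeq promoter windows, gene positions from RefSeq, and snoRNA genes and exon overlaps from GENCODE M21.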

Additional observations from a re-analysis of the deposited data

How the results depend on the processing

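Over 14 alternatives no call of a member changed sign. Of 28 members called with GM-CSF, 20 were called in every alternative, as were 23 of 29 with DON against GM-CSF and 11 of 19 with GM-CSF and DON against no GM-CSF. With GM-CSF, 2 members were lower with upper-quartile scaling and 2 on log2(FPKM + 1), in place of 1, and the median was 0.43 with total counts. With DON against GM-CSF, upper-quartile scaling gave 2 higher members in place of 1 and a median of -0.29. With both against no GM-CSF, total counts gave 7 lower members in place of 13, and a median of 0.017 in place of -0.08. The cause of these shifts was not tested.

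Leaving out 1 library gave 22 to 27 higher and 0 to 2 lower members with GM-CSF (0 without GM-CSF replicate 2, and 2 without no GM-CSF replicate 2 or GM-CSF replicate 1). It gave 24 to 31 lower members with DON against GM-CSF, and 4 to 7 higher and 7 to 12 lower members with both against no GM-CSF. On log2(FPKM + 1), 3 calls of other pathway genes had the opposite sign: Krr1 with GM-CSF was 0.11, and with both against no GM-CSF Mdn1 was 0.12 and Zcchc7 was 0.029.

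With the replicate block, 27 members were higher and 1 lower with GM-CSF, 1 higher and 27 lower with DON against GM-CSF, and 6 higher and 10 lower with both against no GM-CSF. Correlations of replicate differences between groups over 8164 genes were -0.047, -0.298 and 0.0619. None was clearly positive, but with 2 libraries a group they cannot settle if the replicate numbers pair the samples. With 2 libraries a group, small differences could not be detected, and an uncalled difference does not show equal levels.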
